A study of Mus musculus with 4 samples.

Results

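A group of 8 genes that make, package and move glutamate and GABA, the main excitatory and inhibitory transmitters of the brain, were followed in the mouse hippocampus after ischemia. They were chosen by symbol: the vesicular glutamate transporters Slc17a7 (VGLUT1), Slc17a6 (VGLUT2) and Slc17a8 (VGLUT3), the vesicular GABA transporter Slc32a1 (VGAT), the glutamate decarboxylases Gad1 (GAD67) and Gad2 (GAD65), the GABA uptake transporter Slc6a11 (GAT3) and the glutamine transporter Slc38a1 (SNAT1). All 8 were found among the 22609 gene symbols of the count files, and all 8 passed the filter on low counts. RNA came from the hippocampi of ovariectomized female mice in which both common carotid arteries were closed for 20 min, followed by 24 h of reperfusion. One group was FLOX-control. The other was GFAP-ARO-KO, in which a Cre driven by the GFAP promoter deletes Cyp19a1 (aromatase, which makes estrogen from androgens) in astrocytes. Both groups were ovariectomized and had the occlusion, and no sham group is among the samples. The labels give neither the age of the mice nor whether a library is 1 animal or a pool.

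Glutamate is loaded into synaptic vesicles by the VGLUT proteins, and the VGLUT that a neuron expresses marks its class. Slc17a7 is the usual form of pyramidal and granule cells of the hippocampus and of the cortex, Slc17a6 that of thalamic, hypothalamic and other subcortical neurons, and Slc17a8 is found in some neurons that release another transmitter as well, such as certain GABA and serotonin neurons. GABA is made from glutamate by the GAD enzymes and loaded by VGAT, so Gad1, Gad2 and Slc32a1 mark inhibitory neurons. After release, GABA is taken up in part by GAT3, found mainly on astrocytes, while SNAT1 brings glutamine, the precursor of both transmitters, into neurons.

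Each group had 2 libraries, with 27930696 to 34878375 reads assigned to genes. Levels below are CPM, read counts scaled to a common library size. Libraries of one group varied beyond sampling noise: chi-square divided by its degrees of freedom was 13.8 for the control pair and 26 for the knockout pair. Nothing in the labels says that they came from separate animals, so the p-values measure the spread between these libraries, which may be technical. Cyp19a1 had 1 to 9 reads in a library, too few to check the genotype labels. Pan-neuronal markers summed to between 8030 and 8646 CPM in all 4 libraries.

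The vesicular transporters and the decarboxylases have close relatives, and the reads were 50 bases long, so the sequences below show how far such a read can tell relatives apart. For each pair the most similar stretch of 50 coding bases within single exons is given, from the NCBIM37 assembly on which mm9 is built, with the bases that differ between the pair in capitals. The pair of Slc17a6 (chr7:58880820-58880869, plus strand) and Slc17a7 (chr7:52424254-52424303, plus strand) differed at 3 bases:
Slc17a6: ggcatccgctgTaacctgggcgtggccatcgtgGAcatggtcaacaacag
Slc17a7: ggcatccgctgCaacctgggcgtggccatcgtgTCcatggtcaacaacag
The pair of Slc17a6 (chr7:58922833-58922882, plus strand) and Slc17a8 (chr10:89046146-89046195, minus strand) differed at 5 bases:
Slc17a6: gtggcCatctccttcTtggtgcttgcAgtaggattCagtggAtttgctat
Slc17a8: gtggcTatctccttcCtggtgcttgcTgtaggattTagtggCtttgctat
The pair of Gad1 (chr2:70438745-70438794, plus strand) and Gad2 (chr2:22545758-22545807, plus strand) differed at 6 bases:
Gad1: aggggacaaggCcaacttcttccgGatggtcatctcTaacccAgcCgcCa
Gad2: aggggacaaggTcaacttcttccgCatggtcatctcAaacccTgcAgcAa
None of the 1700 coding windows of Slc17a6 came within 2 mismatches of Slc17a7 or Slc17a8, and none of the 1733 of Gad1 came within 2 mismatches of Gad2. Over whole transcripts, 0% of the 50-base windows of Slc17a6, Slc17a7, Slc32a1, Slc6a11 and Slc38a1 matched the genome exactly at several places. The share was 2.88% for Slc17a8, 2.48% for Gad1 and 2.05% for Gad2.

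Slc17a6 lies on chromosome 7 (58877200 to 58926495, plus strand) and Slc17a7 on the same chromosome (52419291 to 52431508, plus strand). Slc17a8 lies on chromosome 10 (89036765 to 89083998, minus strand). Gad2 (22477725 to 22549394), Gad1 (70391129 to 70440071) and Slc32a1 (158436494 to 158441484) are all on the plus strand of chromosome 2, Slc6a11 is on chromosome 6 (114081235 to 114199880, plus strand) and Slc38a1 on chromosome 15 (96401849 to 96473344, minus strand). The exons of Slc32a1 overlap those of the predicted gene Gm14205 on the opposite strand. Gm14205 is not listed under that symbol in the count files. Whether the counting used strand is not stated, so reads of Gm14205 within the count of Slc32a1 cannot be told apart.

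The comparison asked how the ischemic hippocampus of GFAP-ARO-KO mice differs from that of FLOX-control mice. Of the 8 genes, Slc17a6 fell 7.46-fold in the knockout, Gad2 fell 1.27-fold, 0 rose and 6 did not pass (edgeR's quasi-likelihood test, Benjamini-Hochberg adjusted p under 0.05 over 15011 tested genes). Over all tested genes, 11.0% were called lower and 9.39% higher, and a count of 2 in so small a group is given as a description. The median log2 fold change of the 8 was -0.26, beside -0.001 over all tested genes. Both knockout libraries lay below both controls for 5 of the 8, Slc17a6, Slc17a7, Slc17a8, Slc32a1 and Gad2, and above both for 0. Over all tested genes, 32.8% lay below in this way and 32.0% above. In whole tissue, fewer cells of a type and less RNA per cell cannot be told apart.

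**Figure D1:**
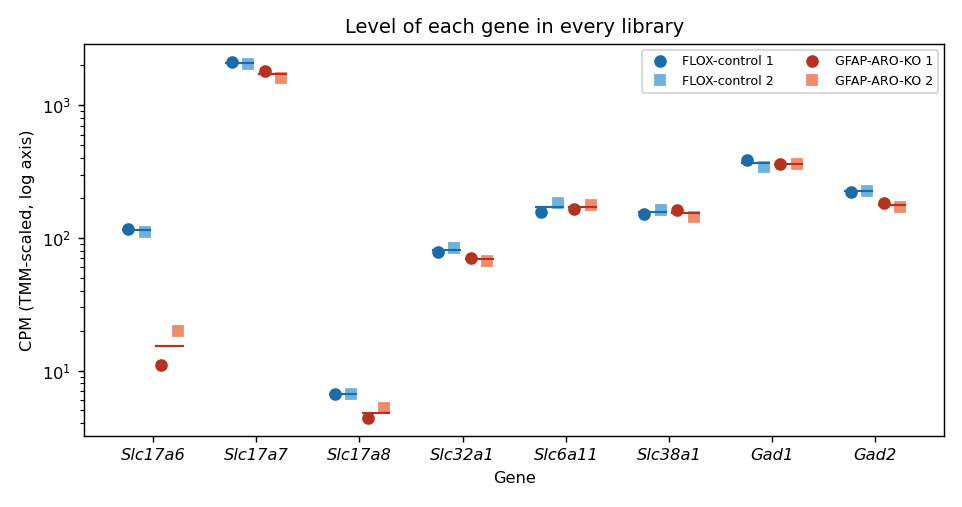
CPM of the 8 genes (logarithmic vertical axis) in each of the 4 libraries, with FLOX-control in blue, GFAP-ARO-KO in red, circles for replicate 1, squares for replicate 2 and a short line at each group's mean. The knockout points of Slc17a6, at 11.1 and 19.7 CPM, lie far below its control points at 117 and 111 CPM, whereas the points of the other 7 genes lie close together.

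Slc17a6, the VGLUT of subcortical neurons, was at 117 and 111 CPM in the controls (3912 and 3616 reads) and at 11.1 and 19.7 CPM in the knockouts (389 and 555 reads). Both knockout libraries were far below both controls, and the second knockout was higher than the first by 0.83 on the log2 scale. The group means were 114 ± 4.41 CPM and 15.4 ± 6.08 CPM (SD, n = 2 each), so the knockouts held 13.5% of the control level. The log2 fold change was -2.90 ± 0.24 (SE, edgeR adjusted p = 0.00177). Of 12670 tested genes whose log2 CPM averaged 1 or more, 14 had a log2 fold change as low, with Slc17a6 counted among them, and of all 15011 tested genes 49 did. The fall was -3.35 without the second knockout library and -2.53 without the first, and it passed in both cases.

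Slc17a7, the VGLUT of hippocampal principal neurons, was at 2122 and 2025 CPM in the controls and at 1810 and 1607 CPM in the knockouts. The groups did not overlap, but the log2 fold change was -0.28 ± 0.09 and did not pass (edgeR adjusted p = 0.0723). Without the first knockout library it was -0.37 and passed (adjusted p = 0.0282). Slc17a8 was scarce, at 6.63 and 6.70 CPM in the controls (222 and 219 reads) and at 4.39 and 5.18 CPM in the knockouts (154 and 146 reads). Its knockout values were also both lower, with a log2 fold change of -0.49 ± 0.19 that did not pass (edgeR adjusted p = 0.111). Its SE was the widest after that of Slc17a6.

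The level of Slc17a6 relative to Slc17a7 does not depend on how the libraries were scaled. Reads per base of the longest coding transcript gave a ratio of 0.0375 and 0.0372 for the controls, against 0.00417 and 0.00833 for the knockouts. The ratio was lower in both knockout libraries, with a log2 difference of -2.66 (pooled SD 0.50). An exact two-sided permutation test over the 4 libraries gave p = 0.333, the smallest p it can give (0.444 adjusted over the 4 ratios tested).

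Of the genes of GABA neurons, 1 of 3 passed. Gad1, whose enzyme makes most of the GABA of the cell body, was at 384 and 344 CPM in the controls and at 358 and 357 CPM in the knockouts. The knockout values lay between the controls, and the log2 fold change was -0.03 ± 0.10 (edgeR adjusted p = 0.876). Gad2, whose enzyme is concentrated at nerve terminals, was at 220.2 and 227 CPM in the controls and at 183 and 169.9 CPM in the knockouts. Both knockouts were lower, and the fall was -0.34 ± 0.09 (log2 fold change ± SE, edgeR adjusted p = 0.0403). The call was lost without the first control, the second control or the second knockout library, with adjusted p of 0.177, 0.224 and 0.102.

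Within libraries, reads per base of Gad1 were 2.98 and 2.60 times those of Gad2 in the controls, against 3.35 and 3.60 times for the knockouts. The ratio was higher in both knockouts, by 0.32 on the log2 scale (pooled SD 0.11, exact permutation p = 0.333). The longest coding transcripts used here have 3355 bases for Gad1 and 5744 for Gad2. All annotated exons together cover 7639 bases for Gad1 and 5876 for Gad2, so over exons the ratio would be smaller in every library. The log2 difference between groups does not depend on the lengths. Slc32a1, which loads GABA into vesicles, was at 77.7 and 83.4 CPM in the controls and at 70.3 and 67.0 CPM in the knockouts. The groups did not overlap, but the log2 fold change of -0.23 ± 0.10 did not pass (edgeR adjusted p = 0.139). The ratio of Slc17a7 to Slc32a1, an excitatory against an inhibitory vesicle gene, was 26.0 and 23.1 for the controls, against 24.5 and 22.8 for the knockouts. These values overlapped (log2 difference -0.05, pooled SD 0.10, exact permutation p = 0.667), and the sign turned without the first control library.

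The 2 transporters of the cell surface overlapped between the groups. Slc6a11, the astrocyte GABA transporter, was at 156 and 182 CPM in the controls and at 164 and 177 CPM in the knockouts. The knockout values lay between the controls, with a log2 fold change of 0.01 ± 0.11 (edgeR adjusted p = 0.952). Slc38a1, the neuronal glutamine transporter, was at 151 and 161 CPM in the controls and at 161 and 145 CPM in the knockouts, with a log2 fold change of -0.03 ± 0.10 (edgeR adjusted p = 0.868). The signs of Slc6a11, Slc38a1 and Gad1 each turned when 1 library was left out.

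**Figure D2:**
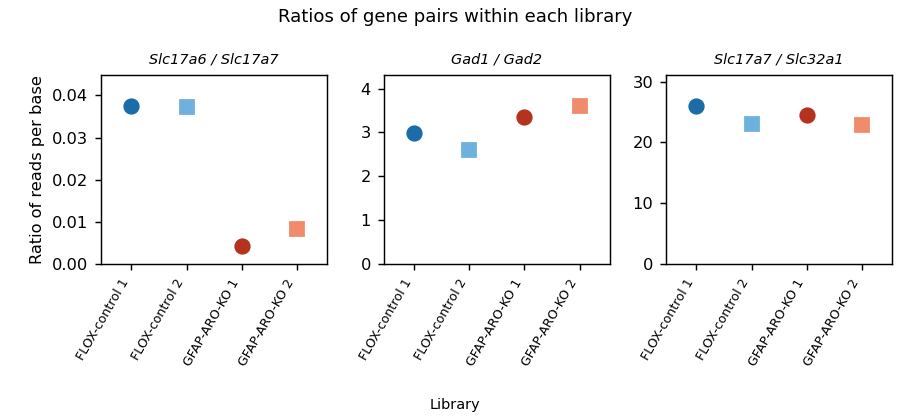
Ratio of reads per base of transcript for pairs of genes (vertical axes from 0) in each library, with FLOX-control in blue and GFAP-ARO-KO in red. The ratio of Slc17a6 to Slc17a7 was 0.0375 and 0.0372 for the controls, against 0.00417 and 0.00833 for the knockouts, and that of Gad1 to Gad2 was higher in both knockouts, whereas Slc17a7 over Slc32a1 overlapped.

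Levels were compared between genes per kilobase of the longest coding transcript, as CPM per kilobase. Slc17a7 was highest, from 547 to 722 over the 4 libraries, followed by Gad1, from 103 to 114, and neither range overlapped that of the gene below it. The level of Gad1 rests on a transcript of 3355 bases, and over its 7639 annotated exon bases it would be lower and nearer to that of Slc6a11. Slc6a11 (38.4 to 44.9), Gad2 (29.6 to 39.5) and Slc32a1 (24.0 to 29.8) came next, and the ranges of neighbours in this order overlapped. Slc38a1 ran from 18.7 to 20.8, below Slc32a1 in every library. Slc17a6 was at 27.1 and 25.6 in the controls, next to Slc32a1, and at 2.56 and 4.56 in the knockouts. Slc17a8 was lowest, from 0.984 to 1.50. The order of the other 7 was the same by the mean of either group, while Slc17a6 stood above Slc38a1 in the controls and below it in the knockouts.

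The other genes of the pathway went both ways. Of 16 genes of glutamate and glutamine handling, 3 fell, 1 rose and 12 did not pass, with a median log2 fold change of -0.04. Of 6 genes listed under GABA uptake and breakdown, which include Aldh9a1, whose enzyme can form GABA, 2 rose, 0 fell and 4 did not pass. Their median of 0.56 rests partly on genes high in a single knockout library. Over both lists together 3 of 22 fell and 3 rose, against the 11.0% and 9.39% over all genes.

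Genes of the astrocyte side of the glutamine cycle were among those called. Glul, glutamine synthetase, which turns glutamate into glutamine in astrocytes, was at 1019 and 1060 CPM in the controls and at 1380 and 1552 CPM in the knockouts. It rose by 0.50 ± 0.09 (log2 fold change ± SE, edgeR adjusted p = 0.013). Slc38a3, a glutamine transporter of astrocytes, was at 95.2 and 80.1 CPM in the controls and at 46.2 and 61.2 CPM in the knockouts, and fell by 0.71 (adjusted p = 0.0217). Its relative Slc38a5 gave 150 and 118 reads for the controls, against 35 and 30 for the knockouts, and fell 3.93-fold (adjusted p = 0.00502). Slc25a18, a mitochondrial glutamate carrier, was at 52.4 and 57.6 CPM in the controls and at 31.8 and 36.0 CPM in the knockouts, and fell by 0.70 (adjusted p = 0.00862). Slc1a2, the main astrocyte glutamate transporter and the most abundant gene of the list, was at 2809 and 2979 CPM in the controls and at 2502 and 2682 CPM in the knockouts and did not pass (adjusted p = 0.222).

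On the GABA side Aldh9a1, an aldehyde dehydrogenase that can form GABA from an aldehyde, was at 31.8 and 30.8 CPM in the controls and at 42.3 and 53.7 CPM in the knockouts and rose by 0.61 (edgeR adjusted p = 0.0225). The calls of Glul without either control library (adjusted p of 0.0833 and 0.0681), Aldh9a1 without either (0.102 and 0.132), Slc38a3 without the first (0.125) and Slc25a18 without the second (0.0758) were lost, whereas Slc38a5 passed in all of these fits.

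**Figure D3:**
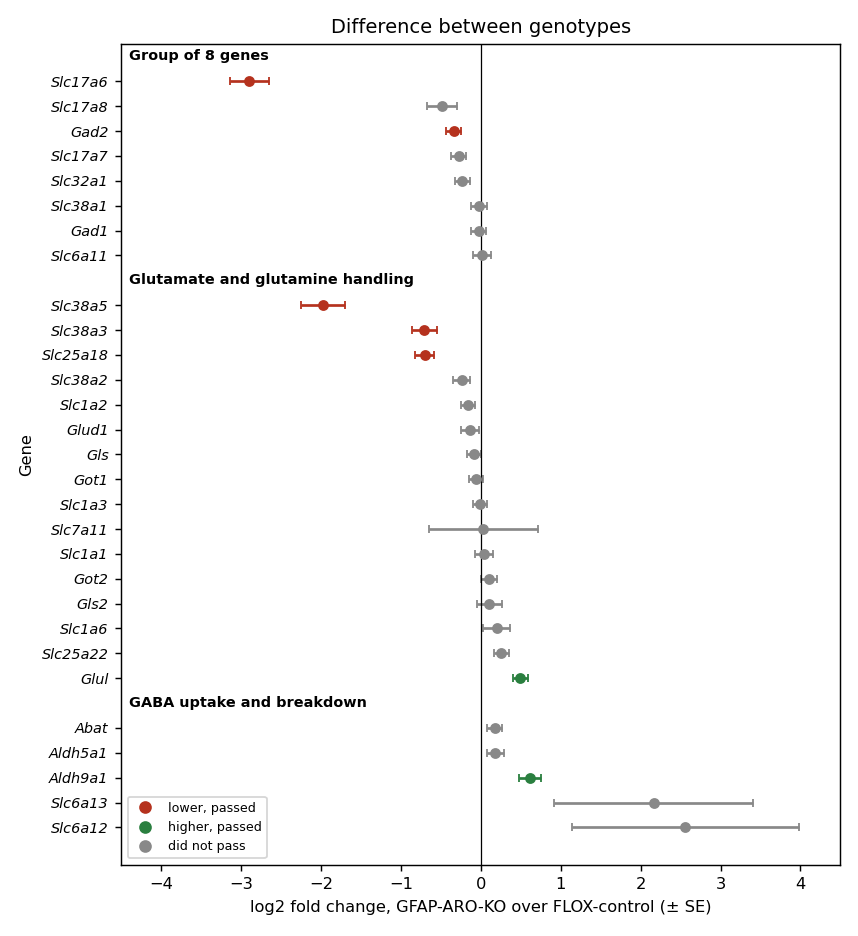
Log2 fold change of GFAP-ARO-KO over FLOX-control (horizontal axis, bars are SE) for the 8 genes and other genes of the pathway, in red where lower and passing, green where higher and passing and gray otherwise. Slc17a6 at -2.90 and Slc38a5 at -1.98 stand apart from the other called genes, and Slc6a12 and Slc6a13 have the widest bars.

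The GABA and betaine transporter genes Slc6a12 and Slc6a13 were high in the second knockout library alone. Slc6a13, known from the meninges as well as from other tissues, was at 3.50 and 4.86 CPM in the controls and at 4.02 and 34.2 CPM in the knockouts. Slc6a12 was at 0.568 and 0.459 CPM in the controls and at 0.513 and 5.99 CPM in the knockouts. Neither passed (edgeR adjusted p = 0.317 for Slc6a13 and 0.277 for Slc6a12). Without the first knockout library both did (2.42e-06 and 1.81e-05), and without the second the log2 fold change of Slc6a13 was -0.045. Slc6a12 also passed with DESeq2 (0.00874). The 8 meningeal markers summed to 101 and 146 CPM for the controls, against 110 and 436 CPM for the knockouts. Of the 8, 0 passed, and Igf2 was at 27.7 and 225 CPM in the knockouts. Igf2 led the list by its mean over the 4 libraries through the second knockout alone, and Dcn was higher in the other libraries. The part of these markers in the level of Slc6a12 and Slc6a13 was not tested. The log2 fold change of Slc17a6 was -3.35 without the second knockout library and -2.53 without the first. The part of meningeal tissue in the level of Slc17a6 was not tested either.

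Markers of the cells that carry the 8 genes were set beside them. Of 7 markers of excitatory neurons 2 fell and 0 rose. Neurod6, a transcription factor of pyramidal neurons, fell by 0.67 (edgeR adjusted p = 0.0275). Camk2a, the most abundant, was at 4953 and 5652 CPM in the controls and at 4674 and 4664 CPM in the knockouts and did not pass (adjusted p = 0.188). Of 7 pan-neuronal markers 2 fell, Map2 (by 0.35, adjusted p = 0.0316) and Eno2 (by 0.33, adjusted p = 0.0336), and Snap25, the most abundant, had a log2 fold change of 0.03. Without the first control library the calls of Neurod6, Map2 and Eno2 were lost (adjusted p = 0.0556 for Neurod6, 0.122 for Map2 and 0.205 for Eno2). Without the second they were lost too (0.145 for Neurod6, 0.21 for Map2 and 0.144 for Eno2), and without the second knockout those of Map2 (0.0596) and Eno2 (0.109).

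Of 12 markers of inhibitory neurons 2 fell, 0 rose and 10 did not pass, and the list summed to 467 and 463 CPM for the controls, against 442 and 387 CPM for the knockouts. Npy, a neuropeptide of many interneurons, was at 79.2 and 73.8 CPM in the controls and at 53.4 and 46.8 CPM in the knockouts and fell by 0.61 (edgeR adjusted p = 0.0111). Htr3a, a serotonin receptor of another interneuron class, fell by 0.64 (adjusted p = 0.0408). Sst, the most abundant of the list, was at 214 and 215 CPM in the controls and at 228 and 193 CPM in the knockouts (adjusted p = 0.905). Neither fall was called without the first control (adjusted p = 0.0874 for Npy and 0.223 for Htr3a) or the second (0.053 and 0.162), nor that of Htr3a without the second knockout (0.0824). The part of interneuron number in the level of Gad2 was not tested.

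For Slc6a11, of 10 astrocyte markers 3 fell, 0 rose and 7 did not pass. The log2 fold changes of these 7 went both ways, from -0.29 to 0.20, and the median of all 10 was -0.15. Gfap fell by 0.94 (edgeR adjusted p = 0.00151), Aqp4 fell by 1.40 (adjusted p = 0.00364) and Sox9 fell by 0.50 (adjusted p = 0.0302). Sox9 did not pass without the first control (0.111) or the second (0.242). Slc6a11 itself had a log2 fold change of 0.01.

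Slc17a6 is also a gene of tissue next to the hippocampus, and the markers of such tissue went both ways. Of 12 markers of thalamus and habenula, 10 could be tested, 1 fell and 2 rose. The list summed to 158 and 179 CPM for the controls, against 156 and 169 CPM for the knockouts. This sum joins the fall of Ntng1 with rises such as that of Prkcd, so its evenness does not show that the markers were level. Prkcd was at 19.4 and 24.0 CPM in the controls and at 30.9 and 41.6 CPM in the knockouts. Ntng1 and Calb2 were the highest of the list in both controls. Gbx2 and Pou4f1, transcription factors of thalamus and habenula, gave at most 6 and 3 reads in any library. Tcf7l2, a further thalamic factor, was at 3.14 and 2.42 CPM in the controls and at 2.54 and 3.01 CPM in the knockouts, which overlap. Ntng1, a netrin of thalamic and other projection neurons, was at 50.1 and 58.1 CPM in the controls and at 25.9 and 22.3 CPM in the knockouts and fell by 1.16 (edgeR adjusted p = 0.00281). Prkcd and Gpr151 rose by 0.74 and 1.30 (adjusted p = 0.0284 and 0.0361). Neither rise was called without the first control (0.157 and 0.211) or the second (0.0631 and 0.0543), nor that of Prkcd without the second knockout (0.0504) or that of Gpr151 without the first (0.0645). Calb2, the most abundant by the mean over the 4 libraries but below Ntng1 in both controls, had a log2 fold change of -0.003, whose sign changed with the scaling.

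Cajal-Retzius cells of the hippocampal border and neurons of the subiculum also use Slc17a6. Of 6 Cajal-Retzius markers, 4 could be tested, 2 rose and 0 fell. Trp73 gave 78 and 105 reads for the controls, against 270 and 176 for the knockouts, and rose by 1.34 (edgeR adjusted p = 0.0106). Nhlh2 rose by 1.73 (adjusted p = 0.0197), and Reln, the most abundant, overlapped between groups. Without the first control neither rise was called (0.0817 and 0.0908), nor that of Nhlh2 without the second (0.111). Of 5 subiculum markers 1 fell, 0 rose and 4 did not pass. The log2 fold changes of these 4 went both ways, from -0.36 to 0.62. Ly6g6e gave 362 and 207 reads for the controls, against 77 and 73 for the knockouts, a fall of 1.85 (edgeR adjusted p = 0.00942). Fn1, the most abundant of the list, was at 69.3 and 75.4 CPM in the controls and at 53.4 and 63.8 CPM in the knockouts and did not pass (adjusted p = 0.111, and 0.0349 without the second knockout).

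Of 7 markers of the neocortex above the hippocampus 2 fell, Rorb by 0.70 and Fezf2 by 0.55 (edgeR adjusted p = 0.0368 and 0.0241), and Lamp5 rose by 0.85 (adjusted p = 0.00371). The 7 leaned lower, with a median log2 fold change of -0.43. Both knockout libraries lay below both controls for 5 of them and above both for 1, against 32.8% and 32.0% of all tested genes. Rprm, the most abundant by the mean over the 4 libraries, was at 95.0 and 51.3 CPM in the controls and at 46.7 and 37.7 CPM in the knockouts and did not pass (adjusted p = 0.128, and 0.00971 without the second control). It led the list only in the first control, with Fezf2 above it in the second and Lamp5 above it in both knockouts. Without the first control Rorb and Fezf2 were not called (0.227 and 0.112), nor without the second (0.105 and 0.136). The part of these neighbouring tissues in the level of Slc17a6 was not tested.

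**Figure D4:**
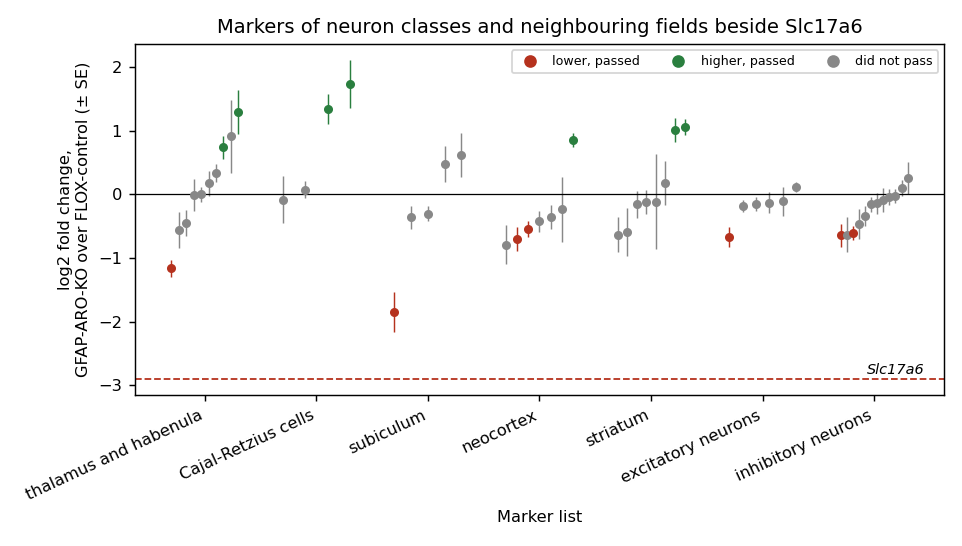
Log2 fold change of GFAP-ARO-KO over FLOX-control (vertical axis, bars are SE) for tested markers of 7 lists, in red where lower and passing, green where higher and passing and gray otherwise; the dashed line marks Slc17a6 at -2.90. No marker shown lies as low as Slc17a6; the nearest is Ly6g6e at -1.85.

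Among the 12670 tested genes whose log2 CPM averaged 1 or more, the 4 whose profile over the 4 libraries lay nearest to that of Slc17a6, by root mean square distance of mean-centered log2 CPM, were Ccdc80 (0.108), Xaf1 (0.164), Serpinf2 (0.179) and 5930412G12Rik (0.227). Ccdc80 encodes a protein of the extracellular matrix, Xaf1 an interferon-induced regulator of apoptosis, and Serpinf2 an inhibitor of plasmin. Ccdc80 was at 24.1 and 27.7 CPM in the controls and at 2.39 and 4.64 CPM in the knockouts, and like Slc17a6 it was higher in the second knockout than in the first. These genes were picked for their likeness over 4 libraries. Their log2 fold changes, from -2.91 to -2.63, and the shared order of the knockout libraries in Ccdc80 follow from that choice. None of them belongs to the pathway lists.

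**Figure D5:**
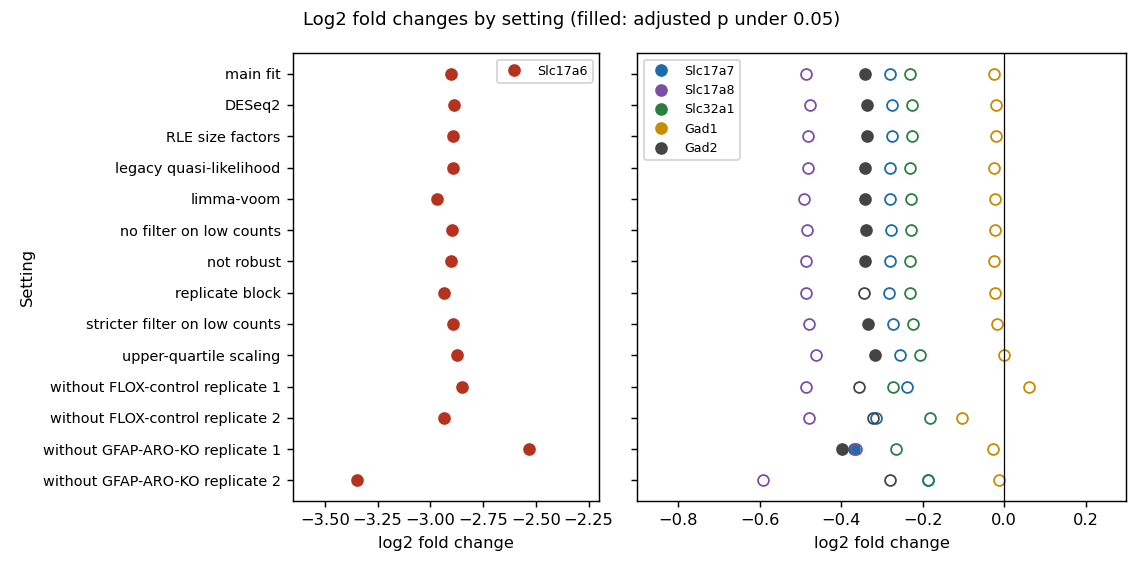
Log2 fold change of 6 of the genes (horizontal axes, a different range in each panel) in the fit as reported and under 13 alternative settings, filled where the adjusted p was under 0.05. Slc17a6 stays between -3.35 and -2.53 and passes throughout, while Gad2 loses its fill under 4 settings and Slc17a7 gains it under 1.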

How the data were processed

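Raw counts per gene symbol were deposited for 4 libraries, which the authors made with HTSeq from 50 bp single-end reads of total RNA libraries, per the labels' protocols. Alignment was to mm9 with TopHat2 2.0.8b, per the submitters' processing notes; no source used here states the annotation or the strand setting. The HTSeq tallies of unassigned reads (45.2% to 47.3% of entries) were left out of library sizes and tests. Groups came from the sample titles.

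Genes passing filterByExpr (minimum count 10, minimum total 15) were scaled by TMM (factors 0.9837 to 1.01) and tested with edgeR 4.0.16 in R 4.3.3 (robust glmQLFit, legacy=FALSE, glmQLFTest), with Benjamini-Hochberg adjustment over all 15011 genes. SE is derived from F and the log2 fold change. On simulated counts for GFAP-ARO-KO against FLOX-control (14879 genes, 200 changed), recovery was 41.7% at 1.5-fold, 66% at 2-fold, 92% at 4-fold and 100% at 8-fold, and 5.1% of calls were unchanged genes. Each simulated gene varied only as the trend over all genes gives for its level, without single outlying libraries. Far fewer genes changed than the 3061 called in the data, so these shares may not hold for the data.

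Positions, transcript lengths and windows come from GENCODE vM1 on NCBIM37; windows were searched on both strands for exact matches. Map2 and Lamp5 are listed under older symbols (Mtap2, 6330527O06Rik), found through RefSeq synonyms (GRCm38.p6 table). The members and lists were chosen with earlier results of these data known. The text names the 8 members, every called gene of the pathway lists, the most abundant gene of each list by its mean over the libraries, the gene with the smallest p of each marker list and the genes most like Slc17a6, except that some genes are counted in their lists but not reported here by name or in figures. Htr3a, Neurod6, Eno2, Aqp4, Sox9, Tcf7l2, Gbx2, Pou4f1, Prkcd, Gpr151, Nhlh2, Rorb, Fezf2, Slc6a12, Slc6a13, Slc7a11, Rgs9, Dcn and Ttr were added once their values were known. The alternatives tried were upper-quartile or RLE scaling, no filter or one on CPM of 1 in 2 libraries, legacy or non-robust estimation, limma-voom 3.58.1, DESeq2 1.42.0, a block for the replicate number, and leaving out single libraries.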

Additional observations from a re-analysis of the deposited data

How the results depend on the processing

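Slc17a6 fell and passed under all 13 alternatives (log2 fold change from -3.35 to -2.53). Gad2 kept its direction under all 13 and lost its call under 4. Over the 8 genes, 94 of 104 values kept direction and side of the threshold, 4 lost and 1 gained a call, and 5 changed sign. With 1 library left out, the genes called over the whole table ran from 814 (without the second control) to 4820 (without the first knockout), against 3061. The members that fell ran from 1 (without either control or the second knockout) to 3, and the pathway genes that rose from 0 (without the first control) to 6 (without the first knockout). A group left with 1 library was assumed to vary like the other, and the cause was not tested.

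The replicate numbers of the titles gave no sign of pairing (correlation of the deviations of same-numbered libraries -0.0057). With the replicate number as a block, 1 member fell, and Gad2 had an adjusted p of 0.0546. Of the other genes named, Slc6a12 (adjusted p = 0.00221) and Rprm (0.00963) gained a call under the block and Ttr lost its call.

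Log2 fold changes that changed sign were those of Calb2 with DESeq2 or RLE scaling (0.002 each), the stricter filter (0.004) and upper-quartile scaling (0.021), of Tcf7l2 with DESeq2 (0.002) and upper-quartile scaling (0.012), of Sst with upper-quartile scaling (0.002), and of Slc7a11 with limma-voom (-0.312) and the replicate block (-0.231). With a library left out, values that crossed 0 ran from -0.089 to 0.127 for Slc6a11, -0.111 to 0.060 for Slc38a1, -0.103 to 0.062 for Gad1, -0.077 to 0.080 for Calb2, -0.187 to 0.198 for Tcf7l2, -0.096 to 0.148 for Snap25, -0.085 to 0.257 for Reln, -0.148 to 0.104 for Sst, -0.171 to 2.839 for Igf2, -0.045 to 3.034 for Slc6a13 and -1.224 to 0.714 for Slc7a11. The log2 difference of Slc17a7 over Slc32a1 ran from -0.136 to 0.033. Upper-quartile scaling moved the median of all genes by 0.024.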

Other observations

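Slc7a11, the cystine and glutamate exchanger of astrocytes, differed more between the 2 knockout libraries than between groups. It was at 36.3 and 38.6 CPM in the controls and at 15.9 and 61.5 CPM in the knockouts (edgeR adjusted p = 0.978). Without the first knockout it was called higher (by 0.714 on the log2 scale, adjusted p = 8.26e-04), and leaving out the second instead it was called lower (log2 fold change -1.224, adjusted p = 0.0011).

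Of 8 striatum markers 2 rose and 0 fell. Ppp1r1b, which encodes DARPP-32, was at 47.5 and 38.2 CPM in the controls and at 86.4 and 91.6 CPM in the knockouts (edgeR adjusted p = 0.00335), and Rgs9 rose by 1.01 on the log2 scale (adjusted p = 0.0114, and 0.0719 without the second control). Of 7 choroid plexus markers 5 could be tested and 2 rose, Ttr by 1.93 (adjusted p = 0.0415) and Clic6 by 1.42 (adjusted p = 0.0311). Neither was called without the first control (0.2 and 0.19) or the second (0.292 and 0.129). Clic6 was not called without the first knockout (0.0698) or with DESeq2 (0.0878), and Ttr not with the replicate block (0.095) or without a filter on low counts (0.0532). Kl, the most abundant of them, was at 26.0 and 30.3 CPM in the controls and at 32.9 and 31.2 CPM in the knockouts and did not pass (adjusted p = 0.324).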
